A study of Rattus norvegicus with 2 samples.

Results

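Superoxide dismutases, catalase and peroxidases are the enzymes that remove superoxide and peroxides from the cell. The genes were chosen by symbol: Sod1, Sod2, Sod3, Cat, Gpx1, Gpx3, Gpx4, Prdx1, Prdx3 and Prdx5, which are 10 of the 22093 genes with a transcript cluster of their own on the array. Each of the 10 had exactly 1 such cluster, and no cluster shared with another gene held any of them. All 10 lay above the floor, the median intensity of 49.3, which 14420 genes reached on at least 1 array. Their levels were read in cultured heart muscle cells of newborn SD rats, given either vehicle or lipopolysaccharide (LPS) at 100 ng/mL and harvested at 24 h. LPS is a component of the outer membrane of Gram-negative bacteria and a ligand of Toll-like receptor 4. By its title, the series belongs to work on HIF-1α and phospholipids in the heart disease of sepsis. Each condition was read on 1 array, so there is no spread between samples, no test and no error on any value, and every difference describes this pair of arrays.

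Superoxide leaks from the respiratory chain and is made on purpose by NADPH oxidases. Superoxide dismutases turn it into hydrogen peroxide, and catalase, glutathione peroxidases and peroxiredoxins then reduce the peroxide. The families divide the work by compartment and by cofactor. Sod1 and Sod3 are copper and zinc enzymes of the cytosol and of the extracellular space, while Sod2 is the manganese enzyme of the mitochondrial matrix. Gpx1, Gpx3 and Gpx4 carry selenocysteine in the active site, and peroxiredoxins use a reactive cysteine that thioredoxin reduces.

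Sod2 had the largest difference of the 10 genes, 7.55-fold higher on the LPS array, and the only one past 2-fold. At smaller sizes the genes divided: Sod3, Gpx3, Prdx5 and Cat were 1.68-fold to 1.23-fold higher, Gpx1 was 1.64-fold lower, and Sod1, Prdx1, Prdx3 and Gpx4 lay within 1.2-fold. Of the 10 genes, 7 were higher, 2 lower and 1, Gpx4, identical. Among all 14420 genes above the floor, the identical ones shared rank 3229 from the highest and rank 4569 from the lowest. Past 2-fold, meaning a difference of 2-fold or more, 1 of the 10 was higher, where 3.69% of all genes above the floor were, and 0 were lower, where 2.63% were. Past 1.2-fold, 5 of the 10 were higher, against 10.5% of all genes, and 1 was lower, against 12.9%. These shares depend on level. In the highest of 10 equal groups by mean level, which held 7 of the 10 genes, they were 15.1% and 20.5%. The median log2 difference was 0.25 over the 10 genes and 0 over all genes above the floor, of which 45.9% had identical values on both arrays.

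**Figure D1:**
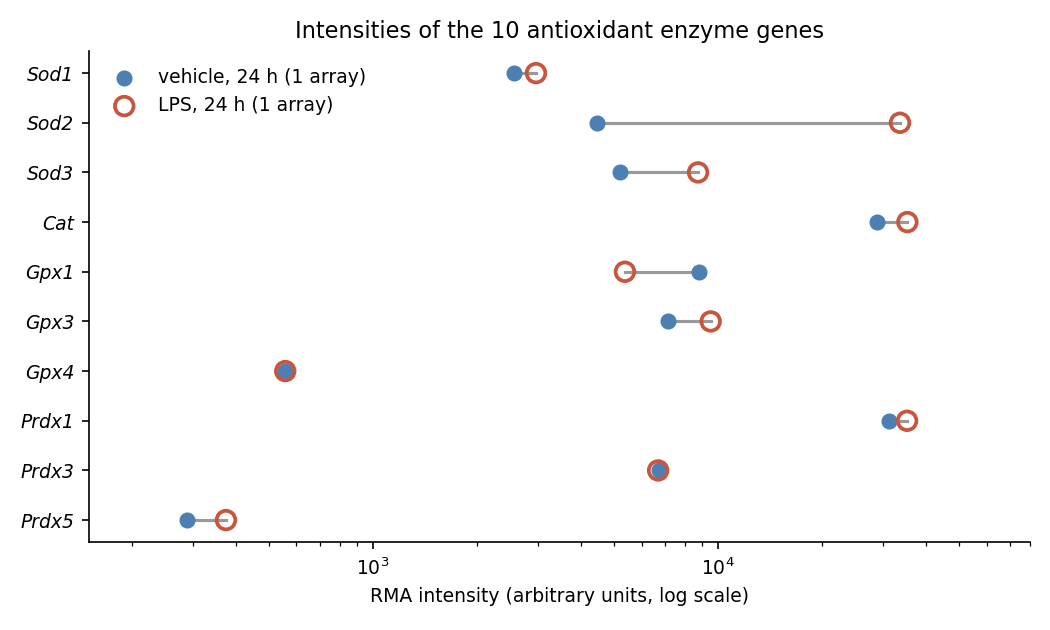
RMA intensity (arbitrary units, log scale) of the 10 genes on the vehicle array (filled) and the LPS array (open), 1 array each, joined by a line. Only the distance within a row can be read, since levels of different clusters are not comparable; Sod2 moves from 4456 to 33656 and Gpx1 from 8804 to 5371.

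The dismutases differed most among themselves. Sod2 (Entrez 24787), which converts superoxide in the mitochondrial matrix, stood at an intensity of 4456 on the vehicle array and 33656 on the LPS array. This is a log2 difference of 2.92, at rank 120 from the highest of 14420 genes. Sod3 (Entrez 25352), the secreted dismutase that binds the cell surface and matrix, stood at 5208 with vehicle and 8749 with LPS. It was 1.68-fold higher, a log2 difference of 0.75 at rank 699. Sod1 (Entrez 24786), the cytosolic dismutase, stood at 2563 and 2967, 1.16-fold higher. The log2 differences within the family thus spanned 2.71, more than among the glutathione peroxidases (1.12) or the peroxiredoxins (0.39).

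The start regions of 3 genes are shown so that the sequence can be read beside the values. They are the 250 bases before the annotated start in RefSeq (GRCr8), 5′ to 3′ on the gene's own strand, for Sod2, for Gpx1, which had the most negative difference, and for Prdx3, a peroxiredoxin of the same compartment as Sod2 that hardly differed. Capitals mark letters that match a motif on either strand. The motifs are an NF-κB motif of 10 letters (kappaB), the core of the antioxidant response element (TGACNNNGC) and the GC box (GGGCGG). The kappaB motif accepts G or A after its opening GG, so a match need not open with GGG.
Sod2 (7.55-fold higher, chr1:50050169-50050418, minus strand): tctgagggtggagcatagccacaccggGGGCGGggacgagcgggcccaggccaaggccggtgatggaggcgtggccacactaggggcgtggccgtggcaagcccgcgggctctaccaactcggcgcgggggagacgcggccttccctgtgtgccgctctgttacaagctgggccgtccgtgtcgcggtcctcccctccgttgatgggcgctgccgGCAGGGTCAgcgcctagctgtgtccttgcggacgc
Gpx1 (1.64-fold lower, chr8:117905212-117905461, plus strand): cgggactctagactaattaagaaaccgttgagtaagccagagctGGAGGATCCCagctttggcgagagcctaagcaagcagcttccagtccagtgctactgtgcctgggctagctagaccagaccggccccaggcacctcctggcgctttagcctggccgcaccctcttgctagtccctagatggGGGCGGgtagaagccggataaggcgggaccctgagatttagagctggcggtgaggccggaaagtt
Prdx3 (within 1.01-fold, chr1:270000112-270000361, minus strand): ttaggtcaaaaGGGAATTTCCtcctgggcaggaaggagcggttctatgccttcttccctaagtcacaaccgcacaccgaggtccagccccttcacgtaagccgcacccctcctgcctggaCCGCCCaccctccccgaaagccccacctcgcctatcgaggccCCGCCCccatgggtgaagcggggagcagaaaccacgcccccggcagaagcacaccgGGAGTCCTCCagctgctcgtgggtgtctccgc

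Windows were matched for 9 of the 10 genes, all but Sod3. In Sod2 the capitals are a GC box that begins 223 bases before the start and an antioxidant element match that begins 35 bases before it. A kappaB match was found in Gpx1, beginning 206 bases before the start, and in Prdx3, at 239 and 32 bases. None of the other 7 windows held a kappaB match. The Prdx3 match at 239 bases opens with GGG, and the other kappaB matches open with GGA. The antioxidant element was matched in Sod2 and Prdx1, and the GC box in 8 of the 9, all but Cat. Over 33469 RefSeq windows of the same length, 8.86% held a kappaB match, 10.1% the antioxidant element and 30.5% a GC box. The 9 windows were from 55.2% (Gpx3 and Prdx5) to 71.6% (Sod2) G and C, against a median of 51.2% over all windows. The GC box holds only G and C, and windows of like G and C content were not compared. Matches of different motifs did not overlap in these windows. A match is a string of letters and was not tested as a binding site, and elements outside these windows were not searched.

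Catalase (Cat, Entrez 24248), which breaks down hydrogen peroxide in peroxisomes without a reducing partner, stood at 28783 with vehicle and 35358 with LPS. It was 1.23-fold higher, just past the 1.2-fold size.

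The glutathione peroxidases went in different directions. Gpx1 (Entrez 24404), the main glutathione peroxidase of cytosol and mitochondria, stood at 8804 with vehicle and 5371 with LPS. It was 1.64-fold lower, a log2 difference of -0.71 at rank 603 from the lowest of 14420 genes. Gpx3 (Entrez 64317), the secreted form found in plasma, stood at 7176 and 9518, 1.33-fold higher. Gpx4 (Entrez 29328), which reduces lipid hydroperoxides in membranes and restrains ferroptosis, had the same value of 557 on both arrays. Whether Gpx1 and Gpx3 differ from each other in response could not be tested with 1 array a group.

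The peroxiredoxins differed least. Prdx1 (Entrez 117254), the abundant cytosolic form, stood at 31316 with vehicle and 35293 with LPS, 1.13-fold higher. Prdx3 (Entrez 64371), the form confined to mitochondria, stood at 6752 and 6703, a log2 difference of -0.01 that came to 7.6e-05 once the arrays were centred on their medians. Prdx5 (Entrez 113898), found in mitochondria, peroxisomes and cytosol, stood at 289 and 375, 1.30-fold higher. Prdx3 was thus within 1.01-fold, while Prdx5 was higher and Gpx1 lower, 2 peroxidase genes whose products also act in mitochondria. These need not be all the mitochondrial peroxidases among the 10 genes.

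Small differences have to be read against genes of like intensity, because the spread of differences depends on level. The genes above the floor were divided into 10 equal groups by mean level, and 7 of the 10 enzymes fell in the highest. In that group, the 10th and 90th percentiles of the log2 difference were -0.47 and 0.44. Sod2 and Sod3 lay above this range, Gpx1 below it, and Cat, Gpx3, Prdx1 and Prdx3 inside. Prdx5, in a group of lower level, lay above its range of -0.52 to 0.32, and Sod1 and Gpx4 were inside theirs. Of the 10 genes, 4 were therefore outside the range, where 20% of all genes are by construction. Identical values, as for Gpx4, were found in 41.7% of the genes of its level group and in 17.7% of the highest group.

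**Figure D2:**
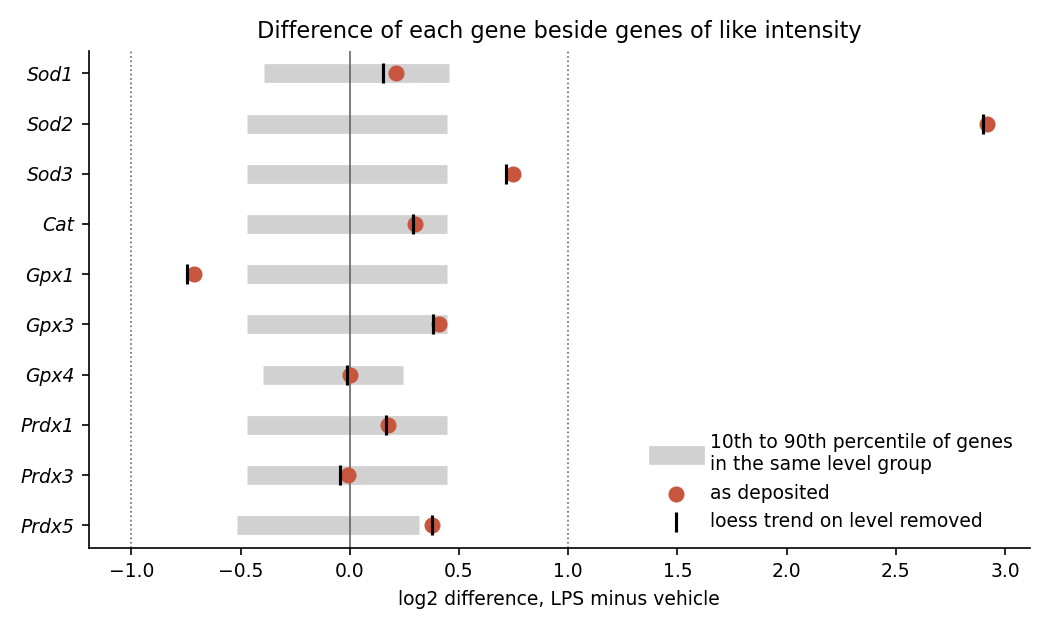
Log2 difference, LPS minus vehicle, of each gene (points) with the 10th to 90th percentile of genes in the same one of the 10 level groups (grey bars) and the value after removal of a loess trend on level (black ticks); dotted lines mark 2-fold. Sod2 (2.92), Sod3 (0.75) and Prdx5 (0.37) lie to the right of their bars, Gpx1 (-0.71) to the left, and the other 6 inside.

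**Figure D3:**
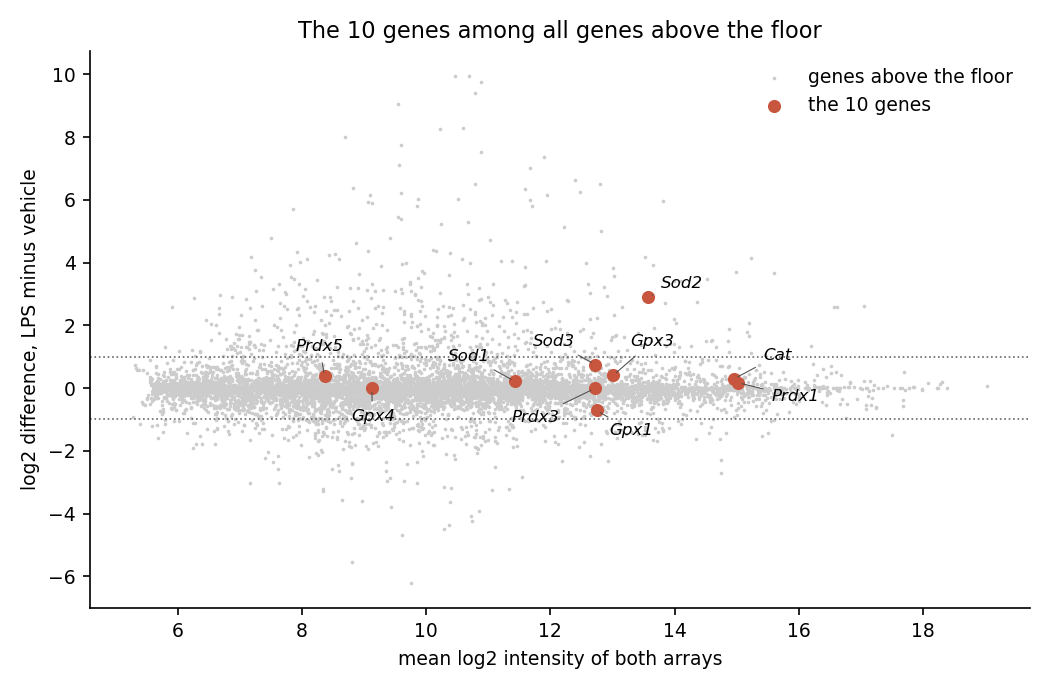
Log2 difference, LPS minus vehicle, against mean log2 intensity of both arrays for the 14420 genes above the floor (grey) and the 10 enzyme genes (red); dotted lines mark 2-fold. Sod2 is the only one of the 10 beyond the dotted lines, and 532 genes of the whole set lie above the upper line.

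Of 8 further glutathione peroxidases and peroxiredoxins, 5 were above the floor; past 1.2-fold, 0 of these were higher and 2 lower, and the median was -0.11. Gpx7, a peroxidase of the endoplasmic reticulum, was 1.49-fold lower, 1667 on the vehicle array and 1118 on the LPS array. Prdx4, the peroxiredoxin of the same compartment, was 1.24-fold lower, at 1353 and 1095, and Gpx8, a membrane protein of the endoplasmic reticulum, was 1.08-fold lower, at 1099 and 1018. Gpx2, Gpx5 and Gpx6 were below the floor on both arrays.

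The systems that hand electrons to the peroxidases differed in a few genes. Of 10 genes of thioredoxin reduction and peroxiredoxin repair, 0 reached 2-fold; past 1.2-fold, 3 were higher and 0 lower, and the median was 0.07. Sesn3, a sestrin, was 1.99-fold higher, at 6358 and 12643. Txnrd1, the cytosolic thioredoxin reductase and a known NRF2 target, was 1.71-fold higher, at 3311 and 5659, and Txnrd3 was 1.23-fold higher. Txn2 and Txnrd2, the mitochondrial thioredoxin and its reductase that serve Prdx3, each had identical values. Of 12 genes of glutathione and NADPH supply above the floor, 2 were higher past 2-fold and 0 lower, and the median was 0.01. Slc7a11, the cystine importer that feeds glutathione synthesis, was 3.05-fold higher, at 1095 and 3340, and Glrx, a cytosolic glutaredoxin, was 2.54-fold higher, at 867 and 2198. Gclc, the catalytic subunit of the first synthetic step, had a log2 difference of 0.26, at 2246 and 2690.

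Genes that make superoxide or hydrogen peroxide were higher in part. Past 2-fold, 5 of 10 above the floor were higher and 1 was lower, and the median was 0.86. Xdh, xanthine dehydrogenase, went from 185 on the vehicle array to 1007 on the LPS array, 5.44-fold higher. The NADPH oxidase GTPase Rac2 was 4.28-fold higher, the organiser Ncf1 3.52-fold, Ncf4 2.78-fold and the membrane subunit Cyba 2.48-fold. Cybb, the catalytic subunit, which was picked out after its value was seen, was 1.33-fold higher, at 15093 and 20085. Nox4, an oxidase of heart and vessel cells that releases hydrogen peroxide, was 2.84-fold lower, at 310 and 109. With intensities under 236 (the 75th percentile over clusters) raised to that level, Xdh was 4.27-fold higher, Ncf4 1.01-fold higher and Nox4 1.31-fold lower, and the list median was 0.21. With no floor the list median was 0, since the 8 further genes were identical on both arrays. Nos2, the inducible nitric oxide synthase, whose product reacts with superoxide to give peroxynitrite, stood at 68.6 and 20747.

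**Figure D4:**
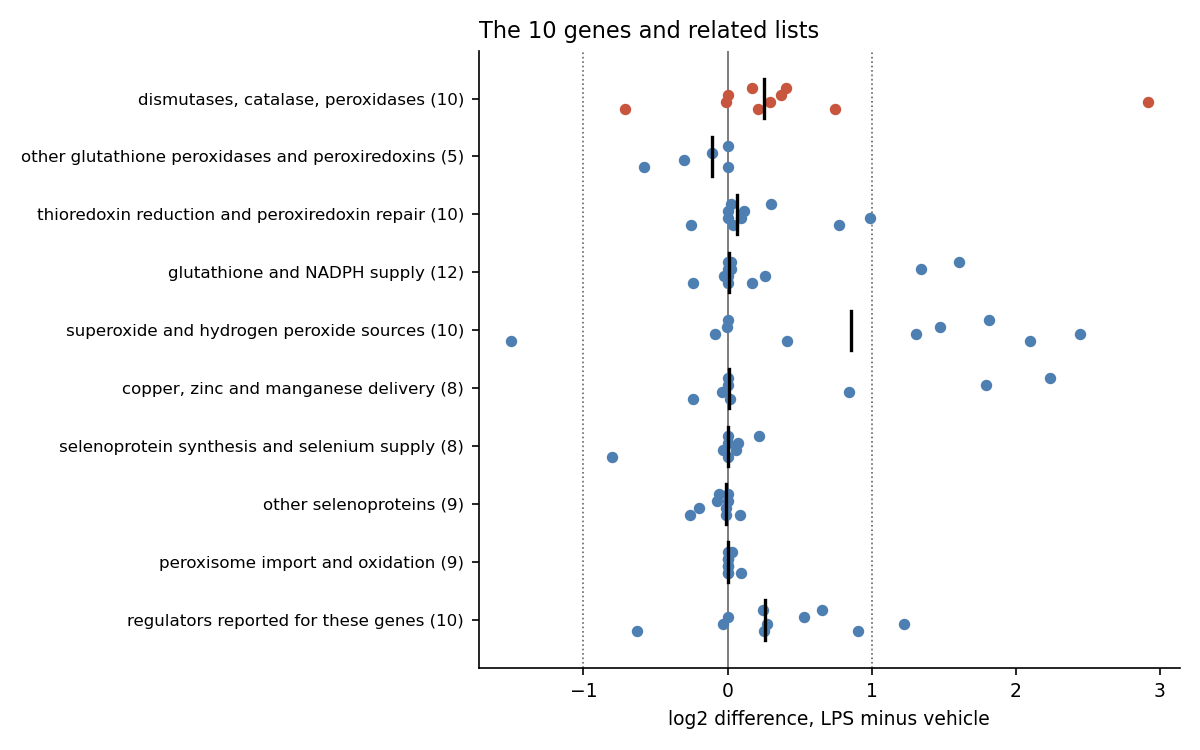
Log2 difference, LPS minus vehicle, of the 10 enzyme genes (red) and of genes in 9 related lists (blue), with the number of genes above the floor in brackets; black bars are medians and dotted lines mark 2-fold. The superoxide and hydrogen peroxide sources have a median of 0.86 at this floor, 0.21 with low values raised and 0 with no floor, and 7 of 9 peroxisome genes are at 0.

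Among genes that deliver metals to the dismutases, the importers that carry manganese were higher, while the 5 copper genes lay within 1.2-fold. Past 2-fold, 2 of 8 above the floor were higher and 0 lower, and the median was 0.01. Slc39a14, an importer of manganese, zinc and iron, was 4.72-fold higher, at 3191 and 15060. Slc11a2, an importer of iron and manganese, was 3.47-fold higher, at 751 and 2606, and Slc39a8, an importer of manganese and zinc, had a log2 difference of 0.84, at 1521 and 2731. These carriers also move iron or zinc, so their values are not specific to the manganese enzyme Sod2. Ccs, the copper chaperone of Sod1, had a log2 difference of -0.04.

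The selenium pathway, on which Gpx1, Gpx3 and Gpx4 depend, held no gene past 2-fold. Of 8 genes of selenoprotein synthesis and selenium supply above the floor, 0 were higher and 1 lower past 1.2-fold, and the median was 0. That gene, Selenop, which encodes the secreted selenium carrier, was 1.74-fold lower, at 168 and 96.3, both under 236, so with low values raised it did not differ. Pstk was 1.17-fold and Secisbp2, which reads the selenocysteine signal in the mRNA, 1.05-fold higher. Of 9 other selenoproteins, 0 differed by 1.2-fold, with a median of -0.01. The log2 difference was -0.26 for Selenom, -0.20 for Msrb1 and 0.08 for Selenof. On these arrays, each of these 9 genes had a smaller difference than Gpx1, at -0.71. Selenoproteins placed in other lists are not among the 9. Of those, Selenop (-0.80 as deposited) and Txnrd1 (0.77) had larger differences than Gpx1, and Txnrd3 (0.30) and Txnrd2 (identical) had smaller ones.

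Peroxisome genes, whose products share the compartment of catalase, hardly differed. Of 9 above the floor, 7 were identical and 0 differed by 1.2-fold. Pex3 was 1.07-fold higher and Pex5, the receptor that imports catalase, 1.02-fold higher.

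Which cells of the culture the differences came from was not tested, and in a bulk RNA sample more cells of a type cannot be told apart from more RNA per cell. Of 8 cardiomyocyte markers, 0 differed by 2-fold, and their summed intensity was 820258 on the vehicle array and 703315 on the LPS array; Actc1 was 1.49-fold and Actn2 1.42-fold lower, and Tnni3 1.09-fold higher. Among macrophage markers, 10 of 11 were above the floor, 1 of them higher and 3 lower past 2-fold. At any size, 2 of these 10 were higher and 7 lower, and the median log2 difference was -0.40. The sums were 27841 and 32483. Adgre1 was 137-fold higher, from 64.4 to 8803, while C1qb was 4.07-fold, Mrc1 3.49-fold and Csf1r 3.39-fold lower. With values under 236 raised to that level, Adgre1 was 37.3-fold higher and C1qb had a log2 difference of -0.59. All 6 neutrophil markers were below the floor on both arrays. The 9 fibroblast markers held 3 that were higher and 3 that were lower past 2-fold. At any size, 4 of them were higher and 5 lower, with a median log2 difference of -0.33, and their sums were 506534 and 642896. Dcn was 12.8-fold, Pdgfra 10.5-fold and Lum 5.89-fold higher, while Thy1 was 3.87-fold, Col3a1 2.70-fold and Tcf21 2.24-fold lower. Smooth muscle and pericyte markers, 6 in number, held 1 that was higher and 2 that were lower past 2-fold, with sums of 416248 and 151840. Tagln was 4.88-fold and Acta2 2.81-fold lower, and Rgs5 was 2.51-fold higher, which became 1.55-fold once low values were raised. Of 6 endothelial markers, Kdr was 2.76-fold higher, from 715 to 1975, Tek was 1.41-fold and Cdh5 1.14-fold lower, and 3 were identical, with a median of 0. The sums were 1361 and 2510, and Kdr was the only 1 of the 6 that was higher. Sums add clusters whose levels are not comparable, so the brightest clusters weigh most in each. The part of these markers in the values of the 10 enzyme genes was not tested.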

How the data were processed

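The deposited values are linear RMA intensities of transcript clusters, made by the authors in Affymetrix Expression Console 1.4.1, per the submitters' processing notes. The sources used here do not give the scaling after RMA, the number of arrays normalised together or the build. The scale is not scanner brightness, since 1364 clusters with vehicle and 1461 with LPS exceed the 16-bit limit of 65535, so levels have no known unit. Values were identical on both arrays in 67.2% of all clusters, and why was not tested; an identical value may therefore not mean an unchanged transcript. RMA pulls the distributions of arrays together, so a shift shared by most genes would not be seen. The number of arrays, 1 per group, limits the precision.

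Log2 was taken with no pseudocount, in Python 3.11.15 with pandas 2.3.3 and statsmodels 0.14.6. Of 68842 clusters, 23446 carried 1 gene symbol; 22077 of these matched RefSeq GRCr8 by Entrez ID, which replaced 1 symbol. A gene with several clusters took the one with the highest mean. No test was run, and differences were counted at 2-fold and 1.2-fold. Only the 2-fold count was tried on simulated data, with planted changes and without identical values. That run checks the code and says nothing on the noise of these arrays. The 10 genes and all lists were chosen with earlier results of these data known. Named were all 10 genes, every list gene past 2-fold and the largest differences up to 3 per list, and Nos2. Outside this rule, Txn2, Txnrd2, Ccs, Cybb, Gpx2, Gpx5, Gpx6, Ppargc1a and Cebpb were named after their values were seen. Some list genes are not reported here. The motifs were chosen after the values were seen, and the NF-κB motif was made stricter after a first search. Its stricter form still accepted GGA as well as GGG at the opening.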

Additional observations from a re-analysis of the deposited data

How the results depend on the processing

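The log2 differences of the 10 genes moved by less than 0.1 when arrays were centred on their medians and when low values under 236 were raised, and kept their direction except that Prdx3, at -0.01, came to 7.6e-05 with centring and Gpx4, identical as deposited, to 0.01; with a loess trend on level (span 0.3) subtracted they moved by at most 0.06 and Gpx4 came to -0.01. The mean over clusters of a gene gave the same values, since each gene had 1 cluster, and no other cluster of a gene was there to try. The counts at 2-fold and 1.2-fold were the same under these settings, with no floor and with the floor at 236. At 1.5-fold in place of 2-fold, 2 genes were higher, Sod2 and Sod3, and 1 lower, Gpx1. The median of 0.25 was between 0.21 and 0.30 with any 1 gene left out. With the mean in place of the median it was 0.44, and 0.17 without Sod2, the latter setting chosen after seeing the data. The median of the list of superoxide and hydrogen peroxide sources was 0.86 as reported, 0.21 with low values raised and 0 with no floor. Among genes in the highest of 10 groups by level, 15.1% were at least 1.2-fold higher and 20.5% lower, above the shares over all genes. No paired analysis was possible because each group has 1 array.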

Other observations

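Past 2-fold, 1 of 10 regulators reported for these genes was higher, against 3.69% of all genes above the floor, and 0 were lower, against 2.63%. Past 1.2-fold, 5 were higher, against 10.5% of all genes, and 1 was lower, against 12.9%. The median log2 difference was 0.26. The gene lower past 1.2-fold was Ppargc1a, 1.55-fold lower, at 2463 and 1594. Cebpb, 1 of the 5, stood at 113 and 163, and with values under 236 raised to that level it did not differ. Nfkb1, the NF-κB subunit precursor, went from 1844 on the vehicle array to 4318 on the LPS array, 2.34-fold higher. Bach1, a repressor at antioxidant response elements, was 1.87-fold higher, at 1572 and 2940, and Foxo3, a forkhead factor reported to act on Sod2 and Cat, was 1.58-fold higher, at 849 and 1337. These are transcript levels, and the activity of the factors was not measured.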
